A study of Mus musculus with 4 samples.

Results

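The comparison set 2 arrays against each other, the array labelled scramble under AEPS and the array labelled scramble in DMEM, out of 4 arrays in the series. Both cultures were RAW264.7, an established mouse macrophage-like line, and both were labelled as carrying a scramble knockdown vector. The labels' protocol, which speaks of the Linc-AAM plasmids, gives the vector as pcDNA6.2-GW/EmGFP-miR and describes blasticidin selection at 6 µg/mL for stable integration, in bulk and not from clones. One culture stayed in DMEM medium and the other received AEPS at 50 µg/mL, both for 4 h. AEPS is a polysaccharide preparation from the plant Actinidia eriantha. The remaining 2 arrays came from the same line, labelled as carrying a vector directed against the long intergenic non-coding RNA Linc-AAM, in DMEM and under AEPS. They serve here as values to set beside the scramble pair. Each group held 1 array, so a difference on the scramble pair had no replicate and no p-value. It describes these 2 cultures, and culture and treatment cannot be told apart. In bulk RNA, fewer cells that express a gene and less of its RNA per cell cannot be told apart either.

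A level is log2 of the processed spot intensity minus the array's 75th percentile of it, and a difference is the level under AEPS minus the level in DMEM. Of 36086 genes or names on the array, 23519 were well above background on 1 or both arrays of the pair and were compared, 21493 of them on both. A gene was called higher or lower at a difference of 2-fold, which is 1 on the log2 scale. Where 1 array did not measure the gene, the difference was replaced where possible by a bound, written "at least". For the bound, the dim array's value was taken as its weakest detected signal or the dim probe's own signal, whichever was higher. No bound was set for 449 compared genes, as when another probe of the gene was above background, and these could not be called. Spots well above background made up 56.1% to 58.0% of the arrays of the pair, 0 spots were saturated, and all 4 arrays lay on 1 slide in 1 scan. Levels near -7.5 are those of probes without signal. The names of the lines are those on the scanner files. The deposited value table exchanges the lines within each treatment: over 55657 probes its columns ranked like the other line's array (Spearman rho 1.0 after rounding) and less like their own (0.969). Which of the 2 sources has the lines right could not be settled from these values.

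Macrophages sense microbial and some plant polysaccharides through Toll-like and C-type lectin receptors, whose adaptors activate NF-kB, the MAP kinases and the interferon regulatory factors. NF-kB and AP-1 switch on cytokine and chemokine genes together with the inhibitors that later shut the response off. Interferon beta made by the cells acts back on them through its receptor and turns on antiviral genes, and activated macrophages also tend to leave the cell cycle.

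The culture was macrophage-like by its markers. Of 12 macrophage markers, 11 were well above background on both arrays, among them Csf1r, the receptor of the macrophage growth factor (level 8.81 in DMEM and 8.36 under AEPS) and Adgre1, which encodes F4/80 (2.46 and 2.68). Mertk was not well above background on either. Among markers of other cells, Cd79a was the only 1 of 6 B cell markers above background on both arrays, and 4 of 6 fibroblast markers were measured on both at levels of -2.85 or below. Brighter on both arrays were the endothelial marker Kdr (3.26 and 3.53), the T cell markers Cd4 (2.42 and 2.21) and Cd3e (0.54 and 0.85) and the neutrophil marker Elane (1.13 and 1.46). The summed intensity of the endothelial markers was 9.95 and 11.9, that of the T and NK cell markers 6.86 and 6.49, and that of the neutrophil markers 2.39 and 3.07. The summed intensity of the fibroblast markers was 0.205 in DMEM and 0.385 under AEPS, in units of the array's 75th percentile, against 810 and 931 for the macrophage markers. Dendritic cell markers summed to 223 and 247, mostly Siglech (levels 7.80 and 7.94). The dendritic cell factor Zbtb46 stood at -4.04 in DMEM and 0.31 under AEPS. The part of other cells in these differences was not tested.

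Under AEPS, 1566 genes were higher (6.66% of those compared) and 1226 were lower (5.21%). The increases reached much further: 348 genes were at least 8-fold higher and 31 at least 8-fold lower, 671 were at least 4-fold higher (2.85%) and 200 at least 4-fold lower (0.85%), 34 were at least 64-fold higher and 0 at least 64-fold lower, and the median fold among called genes was 3.40 for increases and 2.62 for decreases. Of the genes measured on both arrays, 77.2% lay within 1.5-fold. The median difference of the genes measured on both arrays was 0.07, and it moved to -0.08 when arrays were centred on their medians. That centring gave 1315 higher and 1590 lower, so that 45.3% of calls were increases in place of 56.1%, and which direction held more genes therefore depended on the scaling. The largest increases measured on both arrays were those of Il1b, Cxcl2, Ccl5, Saa3, Ifit1, Tnfsf15, Ptger2, Rsad2, Cd40, Timp1, Acod1 and Isg15, from 13.24 down to 6.40 on the log2 scale. The weakest detected level on the DMEM array was -5.37. Ptger2 (-5.19), Tnfsf15 (-5.09), Il1b (-4.76) and Timp1 (-4.37) stood not far above it in DMEM, so their sizes rest on dim values. On the arrays labelled knockdown, Il1b stood at -2.20 in DMEM and differed by 10.32. The largest decreases measured on both arrays, within the naming rule, were those of Cytip, Klhl6, Cbx2, Prtg, Gsdme, E2f2, Abhd15, Angptl2, Tmem51, Susd3, Myadml2 and Fam131a, from -4.13 to -3.30. Lrrc17, not well above background under AEPS, had a bound of -4.48. Outside the naming rule, C130050O18Rik had a lower value still, with levels of 2.82 and -2.20.

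**Figure D1:**
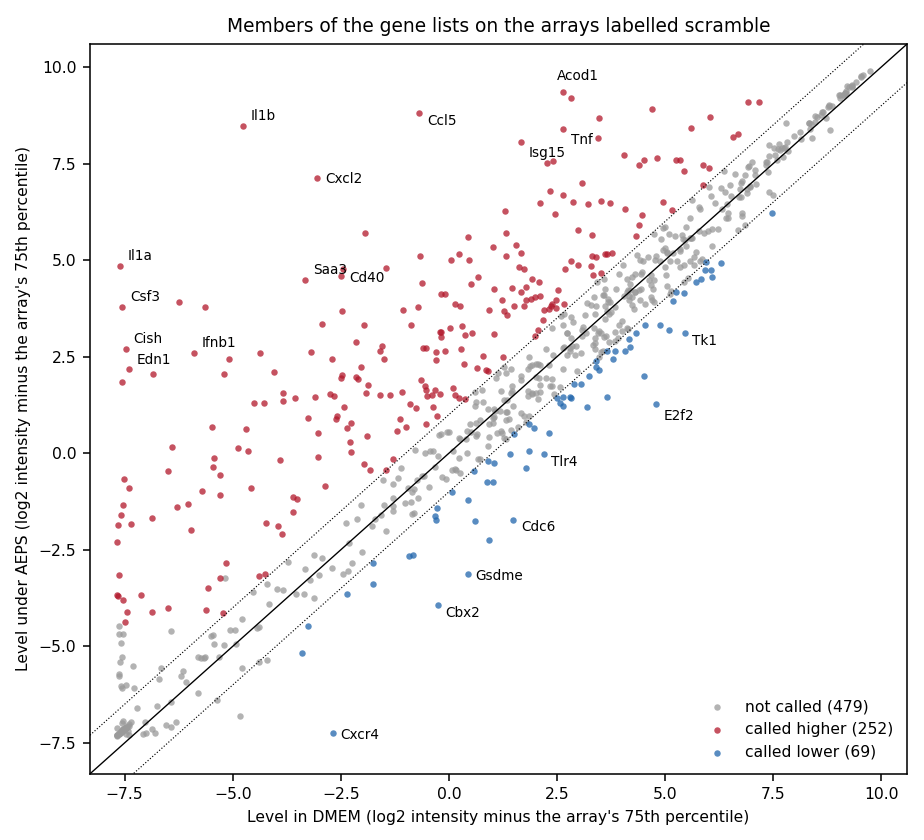
Level in DMEM (x axis) against level under AEPS (y axis) for the 800 members of 32 gene lists on the arrays labelled scramble, in log2 intensity minus the array's 75th percentile. The solid line marks equal levels and the dotted lines a 2-fold difference; 252 members were called higher (red), 69 lower (blue), and the increases lie far from the line at low DMEM levels (Il1a, Csf3, Cish).

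The spots of one probe give the error within an array. Genes printed 8 or more times numbered 353, and the 217 of them measured on both arrays had a median SD between spots of 0.043 in DMEM and 0.044 under AEPS, with a median SE of the difference of 0.02. Tnf, the proinflammatory cytokine, had a level of 2.65 ± 0.02 (SD, 9 spots) in DMEM and 8.40 ± 0.02 (SD, 9 spots) under AEPS. Ptgs2, the inducible cyclooxygenase that makes prostaglandin precursors, stood at 1.30 ± 0.04 (SD, 10 spots) and 6.28 ± 0.04 (SD, 10 spots). In the other direction, Slc5a3, a myo-inositol transporter, had levels of 1.13 ± 0.05 and -1.14 ± 0.07, and Cpt1a, which admits fatty acids into mitochondria, 2.31 ± 0.06 and 0.53 ± 0.05 (SD, 10 spots each). Spot error was thus small beside these differences, but spots of 1 hybridisation are not cultures and give no test of AEPS.

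A limma fit over all 4 arrays, with line and treatment as additive terms, gives the test that the design allows (Benjamini-Hochberg adjusted p under 0.05). It is not independent of the scramble pair, since it uses these arrays, and its residual has 1 degree of freedom, the gap between the AEPS responses of the 2 lines. It takes levels as measured, also those not well above background. In it, 1653 genes rose and 1629 fell of 22341 fitted. These counts depended on the settings, with 271 and 32 when dim genes were not filtered out and 3622 and 3076 with an intensity trend in the variance. Of the genes called higher on the scramble pair, 1396 were in the fit and 1082 rose (77.5%); of those called lower, 1153 were in the fit and 920 fell (79.8%). The pair in the other line shares no array with the scramble pair: 875 of the 1566 genes higher on the scramble pair were also called higher there (55.9%) and 572 of the 1226 lower genes also lower (46.7%), against 4.63% and 3.48% of all genes compared in that pair. Below, a gene list is described by its members called on the scramble pair and the number that passed limma. For some lists the median difference is given, to be set beside that of all genes compared (0.06).

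Most measured cytokine genes were higher. Of 22 compared, 18 were higher and 0 lower, the median difference was 3.60, and 17 rose and 0 fell by limma. Tnf is given above. Ifnb1, the interferon that induces antiviral genes, stood at -5.90 in DMEM, not well above background, and at 2.60 under AEPS, a difference of at least 7.97. Il10, which dampens macrophage activation, had levels of -5.30 and -0.55 (at least 4.75), and Il1rn, the antagonist of the interleukin 1 receptor, -1.60 and 2.63. Lif, a cytokine of the interleukin 6 family, had levels of -4.27 and 1.30. The cytokine genes were therefore not higher in 1 functional class alone: agonists, an antagonist and a dampening cytokine all had higher levels under AEPS. Il12a and Il12b, the subunits of interleukin 12, were not well above background on either array, while Il23a, which pairs with Il12b to form interleukin 23, went from no signal to a level of -4.37, a bound just at 2-fold. With the normexp background the median was 2.17.

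Chemokine genes had a median difference of 4.33, with 15 of 18 higher, 0 lower, and 14 that rose by limma. Cxcl10, a ligand of CXCR3 induced by interferon, had levels of 2.41 in DMEM and 7.57 under AEPS (probe at chromosome 5, 92775781 to 92775840, mm9 here and for all probes). Ccl4 and Ccl3, which attract monocytes and T cells, stood at 2.83 and 9.20, and at 4.70 and 8.90. Ccl22 and Ccl17, both ligands of CCR4, had no measurable level in DMEM and stood at 0.17 and -0.36 under AEPS, differences of at least 5.54 and 5.01. Members that were not called included Cxcl9 (-4.54 and -3.60) and Cxcl11 (8.86 and 8.98), the other ligands of CXCR3. Cxcl14 was the only compared member with a value below 0 (5.15 and 4.21). The median was 2.56 with the normexp background.

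Among 15 growth factor genes, 9 were higher and 0 lower, and 9 rose and 0 fell by limma. Edn1, the precursor of the vasoconstrictor endothelin 1, had a level of -7.40 in DMEM and 2.17 under AEPS, at least 7.54 higher. Csf1, the macrophage growth factor, stood at -3.85 and 1.56, Csf2 at -7.54 and -1.33 (at least 4.04), and Hbegf, a ligand of the EGF receptor, at -4.87 and 0.14. The list's median was 1.95, and 0.52 over the 9 members measured on both arrays, since the bounds carried the largest values. Spp1 (5.81 and 6.33) and Grn (5.05 and 5.18), bright on both arrays, were not called. Of 8 TNF superfamily ligands, 4 were higher and 3 rose by limma, led by Tnfsf15, which costimulates T cells, at -5.09 and 2.44, and Tnfsf9, the ligand of 4-1BB, at 1.78 and 4.31. The smaller calls of Cd70 and Tnfsf14 did not hold with the normexp background (0.70 and 0.51).

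Receptor genes differed in both directions. Of 30 pattern recognition genes, 13 were higher and 2 lower, with 12 that rose and 3 that fell by limma. Among the higher members, Ifih1, which encodes the RNA sensor MDA5, had levels of 0.06 and 5.00, and Nod2, a peptidoglycan sensor, -3.10 and 1.46. Tlr2, the receptor for lipopeptides, stood at 5.88 and 7.46, with its partners Tlr1 at -0.29 and 2.42 and Tlr6 at -0.37 and 1.21. Clec4e, the lectin Mincle, stood at 4.39 and 7.47 and Cd14, a co-receptor of Toll-like receptors, at 6.70 and 8.28. The lower members were Tlr4, the receptor of lipopolysaccharide, at 2.19 and -0.03, and Tlr13, a sensor of bacterial ribosomal RNA, at 3.65 and 1.46. Over both lines Tlr4 fell by 1.68 (SE 0.30, limma adjusted p = 0.0433) while Tlr2 rose by 1.57 (SE 0.11, adjusted p = 0.011). Clec7a, which encodes the beta-glucan receptor Dectin-1, was not called (3.62 and 4.24), nor were Tlr7, Tlr9 and the adaptor Myd88 (3.58 and 4.51).

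Of 30 cytokine and chemokine receptor genes, 7 were higher and 5 lower, with a median difference of 0.14, and by limma 8 rose and 3 fell. Cd40, the costimulatory receptor, rose over both lines by 6.14 ± 0.50 (SE, limma adjusted p = 0.0127), with levels of -2.49 and 4.59 on the scramble pair. Fas, the death receptor, stood at -0.67 and 5.10, and Tnfrsf1b, the second TNF receptor, at -0.62 and 4.41. The 5 lower members were Cxcr4, Il6ra, Tgfbr1, Tgfbr2 and Tnfrsf11a. Il6ra, the interleukin 6 receptor chain, had levels of 6.08 and 4.56, Tgfbr1 and Tgfbr2, the chains of the TGF-beta receptor, 3.79 and 2.45, and 4.18 and 2.76, and Tnfrsf11a, which encodes RANK, 5.72 and 4.44. Of these, Tgfbr2 fell by limma (fell by 1.19, SE 0.16, adjusted p = 0.0274). Tgfbr1 (limma adjusted p = 0.0373) and Tnfrsf11a (adjusted p = 0.0228) fell too, and Il6ra did not pass (adjusted p = 0.0577). Cxcr4 stood at -2.69 in DMEM and without signal under AEPS, a bound of -2.36, but -0.94 with the normexp background.

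Of 27 genes on the list of scavenger and phagocytic receptors, 9 were higher and 0 lower, and by limma 8 rose and 1 fell. The member that fell was the ligand gene Gas6 (-0.64, SE 0.11, limma adjusted p = 0.0432). Axl, a receptor tyrosine kinase that takes up dying cells, had levels of -2.59 and 0.97, Olr1, a receptor of oxidised LDL, -0.54 and 2.73, and Itgax, which encodes CD11c, 1.73 and 3.82. Cd36 (4.68 and 4.62) and Trem2 (7.41 and 6.76) were not called. Of 22 antigen presentation and costimulation genes 8 were higher and 0 lower, and by limma 4 rose and 0 fell. Icosl, a costimulatory ligand, stood at -0.71 and 3.79, and Cd274, which encodes the inhibitory ligand PD-L1, at -2.48 and 1.94. The class I genes H2-K1 (6.06 and 6.66), H2-D1 (4.91 and 5.54) and B2m (6.93 and 7.42) differed by less than 2-fold. Cd80 had a probe at 3.62 and 3.47 and a dimmer one at -3.48 and -0.18, so its direction depended on the probe.

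**Figure D2:**
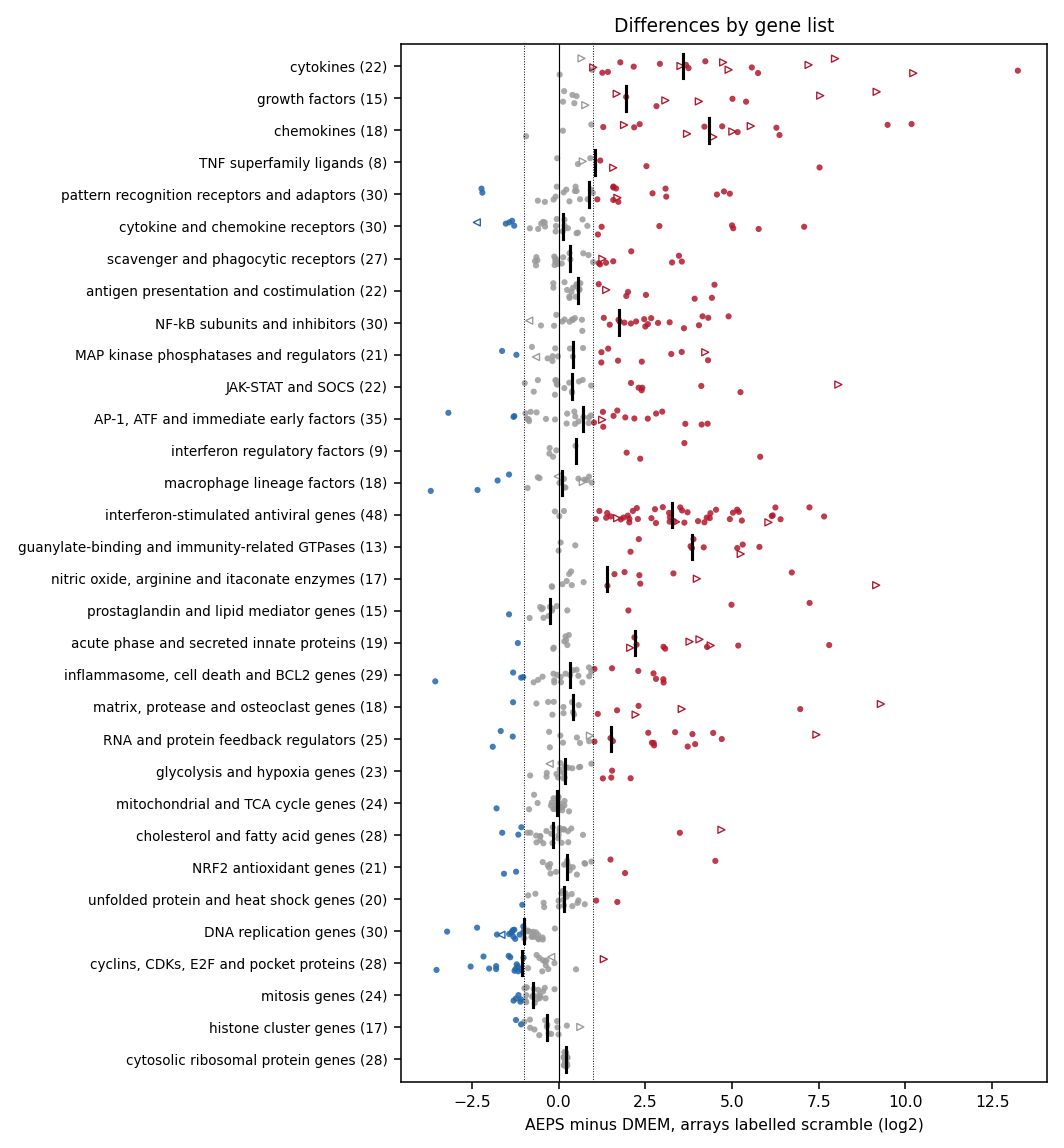
Difference between AEPS and DMEM on the arrays labelled scramble (x axis, log2) for the compared members of each of 32 gene lists (y axis, number of members in brackets). Dots were measured on both arrays, open triangles are bounds, red and blue mark genes called higher and lower, black bars are list medians; antiviral and chemokine genes lie to the right, with medians of 3.27 and 4.33, and DNA replication genes to the left, at -0.99.

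Inside the cell, the inhibitors of NF-kB were higher together with its inducible subunits. Of 30 genes of this list 18 were higher and 0 lower, and 18 rose and 0 fell by limma. Tnfaip3, the A20 ubiquitin editor that terminates signalling, had levels of 0.24 and 5.15 (probe at chromosome 10, 18720776 to 18720835), and over both lines rose by 4.58 ± 0.20 (SE, limma adjusted p = 0.0071). Nfkbia, which encodes the inhibitor IkBalpha, stood at 6.03 and 8.70, Nfkbiz, an inducible nuclear IkB, at -2.42 and 1.19, and Zc3h12a, the RNase Regnase-1, at -1.54 and 2.77. Among the subunits, Nfkb1 stood at 0.53 and 3.11, Nfkb2 at 1.68 and 4.17, Rel at -3.60 and -1.14 and Relb at 2.38 and 3.85. Rela, the subunit p65, stood at 5.11 and 4.98, and the kinase genes Chuk, Ikbkb and Ikbkg differed by 0.17 to 0.41. The genes of the IKK kinase complex were thus not among the called members. The related kinase gene Ikbke was called higher, at -3.25 and 0.90, and rose over both lines by 3.86 (SE 0.19, limma adjusted p = 0.00735).

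The lists of the MAP kinase and JAK-STAT pathways held fewer called members. Of 21 MAP kinase regulators 9 were higher and 2 lower, and by limma 7 rose and 2 fell. Dusp2 and Dusp16, phosphatases of MAP kinases, had levels of 3.21 and 6.46, and of 0.29 and 2.69, and Gadd45b, which activates the p38 and JNK pathways, 1.02 and 5.33. The lower members were Gadd45g (4.53 and 3.31) and Dusp14 (-1.76 and -3.38; -0.85 as a difference with normexp). Mapk3 and Mapk14, the kinases ERK1 and p38alpha, were not called. Of 22 JAK-STAT genes 7 were higher and 0 lower, and by limma 7 rose and 2 fell. Cish, an inhibitor of cytokine receptor signalling, was without signal in DMEM and stood at 2.69 under AEPS, at least 8.07 higher (chromosome 9, 107204196 to 107204255). Socs3, the feedback inhibitor of interleukin 6 signalling, stood at 2.27 and 7.52, Socs1 at -2.65 and 1.47, and Jak2 at 1.91 and 3.99. Stat3 lay just below the threshold, with levels of 2.67 and 3.61.

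Transcription factor genes were split. Of 35 AP-1, ATF and immediate early genes, 14 were higher and 3 lower, and by limma 12 rose and 6 fell. Maff stood at -2.15 and 1.98, Cebpd at 4.06 and 7.71, Myc at 1.46 and 4.27, Atf3, a repressor of inflammatory genes, at 1.78 and 3.96, and Junb at -0.76 and 1.17. Jun itself was lower, at 3.06 and 1.78, but did not pass limma (adjusted p = 0.0595). Cebpa, a factor of myeloid differentiation, was also lower, at 1.05 and -0.25, and fell by limma (adjusted p = 0.0173). The early response genes Fos (3.35 and 3.25) and Nr4a1 (1.67 and 1.03) were not called at 4 h. Of 9 interferon regulatory factors 4 were higher, 0 were lower and 3 rose by limma. The higher members were Irf4 (-3.20 and 2.62), Irf7 (-1.86 and 1.76), Irf1 (2.08 and 4.43) and Irf9 (2.12 and 4.08). Among them, Irf1 did not pass limma (adjusted p = 0.127) and differed by 0.56 in the other pair. Irf3 (4.74 and 4.47), Irf5 and Irf8 were not called.

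Of 18 macrophage lineage factors, 0 were called higher and 4 lower, and by limma 3 rose and 4 fell. The 4 lower genes were Cbx2, a Polycomb component, with levels of -0.25 and -3.94, Tfeb, the factor for lysosomal genes, at 0.59 and -1.74, Mef2c at -0.91 and -2.67, and Fli1 at 2.65 and 1.22. Spi1, which encodes PU.1, was at 1.27 and 2.23, just below the threshold. Runx1, Mitf and Pparg were not called. The 3 members that rose by limma were also not called on the scramble pair. Over both lines they rose by 2.39 (Gfi1, SE 0.27, limma adjusted p = 0.0213), 1.1 (Rxra) and 0.76 (Bhlhe40). In the other pair 2 members of this list were called higher and 4 lower.

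**Figure D3:**
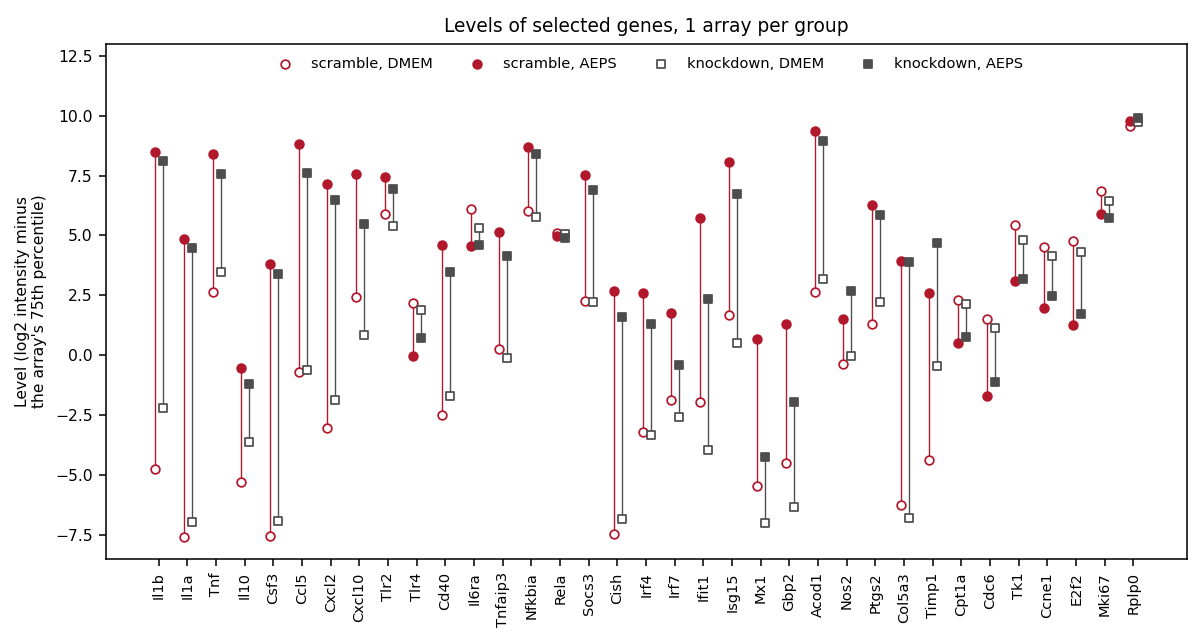
Levels of selected genes (x axis) in log2 intensity minus the array's 75th percentile (y axis) on the 4 arrays, 1 per group: red circles for the arrays labelled scramble, grey squares for those labelled knockdown, open for DMEM and filled for AEPS. Lines join the arrays of a pair; Il1b, Cish and Col5a3 have long lines on both pairs, Rela and Rplp0 short ones, and Tlr4, Cdc6 and E2f2 lie lower under AEPS.

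Interferon-stimulated antiviral genes were the list with the largest share called. Of 48 compared, 45 were higher (93.8%) and 0 lower, with a median difference of 3.27, and 36 rose and 0 fell by limma. Ifit1, which binds viral RNA, had levels of -1.94 and 5.71 (chromosome 19, 34723796 to 34723855), Isg15, a ubiquitin-like modifier, 1.67 and 8.07, and Mx2 -1.45 and 4.80. Rsad2, the antiviral enzyme viperin, stood at -2.46 and 4.77, and Usp18, which removes ISG15 and damps interferon signalling, at 0.45 and 5.60. The smallest called differences were those of Ifitm3 (5.87 and 6.94) and Parp12 (0.24 and 1.42). The 3 members not called were Ifi27l2a (6.44 and 6.46), Samhd1 (4.17 and 4.06) and Oas1b, whose brighter probe stood at 5.41 and 5.56 and whose dimmer probe stood at -0.61 and 1.84. Of 13 guanylate-binding and immunity-related GTPases, which act on vacuoles of intracellular microbes, 10 were higher and 0 lower, with a median of 3.84, and 8 rose and 0 fell by limma. Gbp2 stood at -4.50 and 1.29, Gbp3 at -2.70 and 2.45, Irgm1 at 1.55 and 5.39 and Igtp at 0.66 and 4.55. Gbp6, Iigp1 and Tgtp1 were not called, and Tgtp2 (-3.60 and -1.52) had a second probe without a difference.

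Several effector enzymes of activated macrophages were higher. Acod1, which makes the antimicrobial metabolite itaconate, had levels of 2.63 and 9.35 (chromosome 14, 103455171 to 103455231) and rose over both lines by 6.24 ± 0.27 (SE, limma adjusted p = 0.0071). Nos2, the inducible nitric oxide synthase, stood at -0.38 and 1.52, Ass1, which recycles citrulline to arginine, at -0.18 and 3.13, Gch1, which supplies its cofactor, at 3.30 and 5.66, and Odc1, the first enzyme of polyamine synthesis, at 5.26 and 7.59. In all, 9 of 17 genes of the nitric oxide, arginine and itaconate list were higher and 0 lower, 10 rose and 0 fell by limma, with a median of 1.41, which was 0.72 over the members measured on both arrays. Arg1 had no signal on either array, while Arg2, the mitochondrial arginase, was higher by at least 3.99. In the prostaglandin list, where 3 rose and 1 fell by limma, 3 of 15 were higher, Ptger2, Ptgs2 and Ptgir, and 1 was lower, Hpgds, a prostaglandin D synthase (-0.30 and -1.73). Ptger2, a receptor of prostaglandin E2, had levels of -5.19 and 2.04. Ptges, its synthase, had a bright probe at 5.34 and 5.29 and a dim one at -3.69 and 0.01.

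Of 19 acute phase and secreted proteins 11 were higher and 1 lower, and 11 rose and 0 fell by limma. Slpi, a protease inhibitor, stood at -3.83 and 1.35, and Lcn2, which binds bacterial siderophores, at -2.75 and 1.53. Serpinb2, F3 and Plat were at least 4.06, 4.39 and 3.78 higher. Plau, the urokinase gene, was the lower member, at 3.83 and 2.66, while its receptor gene Plaur stood at 4.52 and 7.59. The median of 2.19 became 0.30 over the 15 members measured on both arrays. F10 had a bright probe at 9.73 and 9.90 and a dim one at -2.38 and 2.20. In the matrix list 7 of 18 were higher and 1 lower, and 7 rose and 0 fell by limma. Col5a3, a fibrillar collagen chain, stood at -6.24 and 3.92, at least 9.29 higher (chromosome 9, 20574592 to 20574651), and Timp1, the inhibitor of matrix metalloproteinases, at -4.37 and 2.60. Mmp9 was at least 3.55 higher, and Mmp13 at least 2.22, with 0.99 under the normexp background. The osteoclast factor Nfatc1 (4.43 and 4.26) was not called.

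Cell death genes were mixed, with 7 of 29 higher and 4 lower, and by limma 8 rose and 5 fell. Casp4, a sensor of intracellular lipopolysaccharide, had levels of 1.74 and 4.76, Ripk2, the kinase downstream of NOD receptors, -2.26 and 0.77, Cflar, an inhibitor of caspase 8, -0.10 and 2.64, and Bcl2a1d, a BCL2 family survival gene, 5.60 and 8.41. Gsdme, a pore former of pyroptosis, stood at 0.43 and -3.12 and fell over both lines by 3.20 (SE 0.21, limma adjusted p = 0.0097). Bcl2 (0.06 and -1.01) and Nlrp1b (1.51 and 0.50) were also lower, both within 2-fold with normexp (-0.93 and -0.94). Casp1, Gsdmd and Pycard, parts of the inflammasome pathway, differed by 0.41 to 0.69. Of 25 feedback regulators 14 were higher and 3 lower, and 14 rose and 0 fell by limma: Marcks, a substrate of protein kinase C, was at least 7.43 higher, Kdm6b, a histone H3 lysine demethylase, stood at 0.52 and 4.38, and Adora2a, an adenosine receptor that restrains macrophages, at -4.65 and 0.05. Zfp36l2, an RNA-binding decay factor, was lower (5.09 and 3.19), as were Hdac9 (0.45 and -1.22) and Rgs2 (6.07 and 4.75).

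Mitochondrial and ribosomal protein genes lay close to the median of all genes. Of 24 mitochondrial and citrate cycle genes, 0 were higher and 1, Cpt1a, was lower, with a median of -0.04, and by limma 0 rose and 1 fell. All 28 cytosolic ribosomal protein genes were measured on both arrays and differed by 0.15 to 0.26, and 0 passed limma in either direction. Of 23 glycolysis and hypoxia genes 4 were higher and 0 lower, and by limma 6 rose and 0 fell. The higher members were the glucose transporters Slc2a1 (4.95 and 6.50) and Slc2a6 (4.39 and 5.92), the hexokinase Hk2 (2.49 and 3.77) and Adm. Adm, the adrenomedullin gene, stood at -3.96 and -1.88. The later enzymes Gapdh (9.33 and 9.49), Eno1 (8.52 and 8.69) and Ldha (9.05 and 9.19) were not called. Of 28 cholesterol and fatty acid genes 2 were higher and 3 lower, and by limma 3 rose and 3 fell. Ch25h, which makes 25-hydroxycholesterol, was without signal in DMEM and at -0.68 under AEPS (at least 4.70), and Abca1, the cholesterol exporter, stood at -2.61 and 0.88. The other exporter, Abcg1, was lower, at 2.50 and 1.43. In the NRF2 list 3 of 21 were higher and 2 lower, with 6 that rose and 0 that fell by limma, led by Slc7a11, the cystine transporter, at -2.48 and 2.04, whereas Gclc, the rate-limiting enzyme of glutathione synthesis, was lower, at 4.89 and 3.32. Of 20 unfolded protein and heat shock genes 2 were higher, Herpud1 (3.40 and 5.09) and Hspa1a (-5.23 and -4.14), and 1 was lower, Atf6 (0.59 and -0.46; -0.94 as a difference with normexp), while by limma 2 rose and 2 fell. Hspa1a was under 2-fold with normexp, quantile normalization and median centring (0.42, 0.96 and 0.94).

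Of the genes called on the lists of DNA replication, mitosis and histones, none was higher. Of 30 DNA replication genes, 0 were higher and 14 lower, with a median of -0.99, and 24 fell and 0 rose by limma. Cdc6, which loads the replicative helicase, had levels of 1.49 and -1.72 (chromosome 11, 98782986 to 98783045) and fell over both lines by 2.73 (SE 0.27, limma adjusted p = 0.0172). Tk1, thymidine kinase, stood at 5.45 and 3.10, the helicase subunits Mcm2 at 4.07 and 2.64 and Mcm6 at 7.47 and 6.22, and Rrm2, the ribonucleotide reductase subunit, at 6.29 and 4.92. Differences of the 30 members ran from -3.21 to -0.11, so each of them was below 0. Brca1, lower by a bound of -1.65, was at -0.45 with normexp.

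Of 28 cyclin, CDK and E2F genes 15 were lower and 1 higher, and 14 fell and 0 rose by limma. E2f2, an activator of S phase genes, had levels of 4.79 and 1.27 (chromosome 4, 135750562 to 135750621), Ccne1, cyclin E1, 4.52 and 1.99, and the E2F repressors E2f7 and E2f8 1.77 and -0.39, and 3.19 and 1.19. A second, dimmer E2f7 probe stood at -1.85 and -1.96. Ccnd1, cyclin D1, stood at 5.19 and 3.95. Inhibitors of the cycle were lower as well, with Cdkn2c at 1.85 and 0.06 and Cdkn1b at 2.58 and 1.31, whereas Cdkn1a, which encodes p21, had its brightest probe at 3.62 and 5.16 (difference 1.54, and 0.42 as the mean of its probes). The higher member, Ccnd2, was at least 1.30 higher and 0.43 with normexp. Of the mitosis genes, 5 of 24 were lower and 0 higher, with a median of -0.74, and 12 fell by limma. The 5 were Ccnf, Cenpf, Kif11, Ttk and Foxm1, which drives G2 and M phase genes and stood at 2.88 and 1.78. The calls of Cenpf and Ttk did not hold with the normexp background. Mki67, the Ki-67 gene (6.86 and 5.91), and Plk1 (5.43 and 4.44) were not called, but both fell by limma. Of 17 histone genes 2 were lower, H1f2 (3.24 and 2.01) and H1f0, the latter at -0.65 with normexp, and by limma 7 fell and 1 rose.

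Promoters show where the binding motifs of the factors named above occur. RefSeq promoters of build GRCm38.p6, from 250 bases before to 50 after a gene's start, were matched to 11609 of the compared genes, with 14554 promoters. Searched on both strands were the NF-kB consensus, the core of the interferon-stimulated response element (ISRE; GAAA, any 2 bases, GAAA), the AP-1 site TGANTCA and the E2F sites TTTCCCGC and TTTGGCGC. The ISRE core was in 3.09% of all these promoters, in 8.58% of those of genes called higher and in 17.5% of those of genes at least 8-fold higher. AP-1 was in 5.73%, 10.1% and 16.6%, and the NF-kB consensus in 5.04%, 7.52% and 9.61%. The E2F sites ran the other way, with 2.62% of all promoters, 1.45% of the higher genes and 5.80% of the lower genes. These shares are descriptions without a test, several promoters can belong to 1 gene, and a match is neither a bound site nor a cause.

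**Figure D4:**
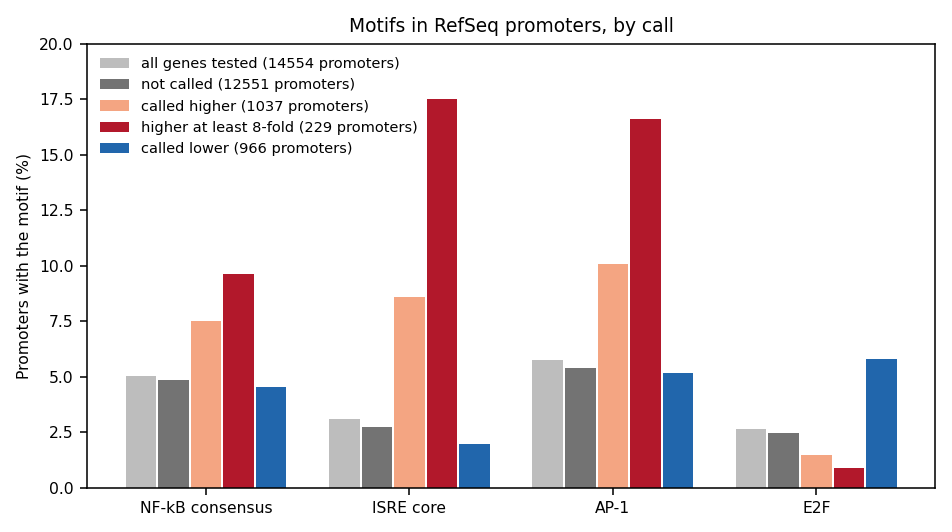
Share of RefSeq promoters (y axis, percent) that hold each of 4 motifs (x axis), for all genes compared, genes not called, genes called higher, genes at least 8-fold higher and genes called lower on the arrays labelled scramble. The ISRE core reaches 17.5% and AP-1 16.6% among genes at least 8-fold higher, and the E2F sites 5.80% among lower genes.

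By list, 15 of 36 promoters of the NF-kB list held the NF-kB consensus (41.7%), 21 of 45 of the antiviral list the ISRE core (46.7%), 9 of 10 of the GTPase list the ISRE core, and 8 of 28 of the DNA replication list an E2F site (28.6%). E2F sites were also in 5 of 27 of the cyclin list, but in 0 of 22 of the mitosis list and 0 of 16 of the histone list. The NF-kB consensus was in 4 of 12 of the chemokine list and 0 of 16 of the acute phase list. The promoters below belong to members with large differences on the cytokine, chemokine, NF-kB, antiviral and DNA replication lists and hold at least 1 match, given as the 250 bases before the start, 5′ to 3′ on the gene's strand, with the matched motifs in capitals. They show how motifs of different factors stand side by side in 1 promoter, as in Cxcl10, or repeat, as in Isg15 and Ifit1. The first 5 belong to cytokine, chemokine and NF-kB genes and their capitals mark AP-1, NF-kB or ISRE matches.
Il1a: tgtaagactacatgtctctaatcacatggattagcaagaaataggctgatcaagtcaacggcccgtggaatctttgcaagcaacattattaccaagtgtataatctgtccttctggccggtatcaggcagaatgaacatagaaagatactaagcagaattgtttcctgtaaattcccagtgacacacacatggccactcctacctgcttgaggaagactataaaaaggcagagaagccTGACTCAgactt
Ifnb1: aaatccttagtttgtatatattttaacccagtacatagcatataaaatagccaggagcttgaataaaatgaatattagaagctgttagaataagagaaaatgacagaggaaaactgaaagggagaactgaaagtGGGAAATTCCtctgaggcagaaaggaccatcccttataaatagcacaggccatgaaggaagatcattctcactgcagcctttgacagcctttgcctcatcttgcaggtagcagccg
Cxcl2: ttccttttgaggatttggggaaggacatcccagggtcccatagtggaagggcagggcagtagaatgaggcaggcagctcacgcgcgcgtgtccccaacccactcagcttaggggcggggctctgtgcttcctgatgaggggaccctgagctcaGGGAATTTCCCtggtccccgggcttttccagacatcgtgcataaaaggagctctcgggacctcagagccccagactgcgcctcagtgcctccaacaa
Cxcl10: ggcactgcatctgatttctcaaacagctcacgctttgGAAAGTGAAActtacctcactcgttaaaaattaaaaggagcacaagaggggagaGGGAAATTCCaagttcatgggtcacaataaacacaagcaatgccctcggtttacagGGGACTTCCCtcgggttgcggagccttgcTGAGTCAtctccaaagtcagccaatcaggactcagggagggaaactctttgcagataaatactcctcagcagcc
Tnfaip3: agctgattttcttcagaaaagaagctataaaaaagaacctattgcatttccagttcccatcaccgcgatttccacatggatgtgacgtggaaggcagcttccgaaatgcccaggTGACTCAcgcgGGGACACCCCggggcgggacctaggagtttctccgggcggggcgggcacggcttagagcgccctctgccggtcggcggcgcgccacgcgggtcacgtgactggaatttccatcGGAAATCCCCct
The next 3 belong to antiviral genes, with ISRE cores in capitals and, in Rsad2, also an AP-1 site.
Ifit1: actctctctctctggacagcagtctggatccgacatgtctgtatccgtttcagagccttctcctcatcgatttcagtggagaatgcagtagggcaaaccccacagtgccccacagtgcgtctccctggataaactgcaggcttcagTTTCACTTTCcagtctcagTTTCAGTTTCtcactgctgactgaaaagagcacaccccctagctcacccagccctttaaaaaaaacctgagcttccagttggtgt
Rsad2: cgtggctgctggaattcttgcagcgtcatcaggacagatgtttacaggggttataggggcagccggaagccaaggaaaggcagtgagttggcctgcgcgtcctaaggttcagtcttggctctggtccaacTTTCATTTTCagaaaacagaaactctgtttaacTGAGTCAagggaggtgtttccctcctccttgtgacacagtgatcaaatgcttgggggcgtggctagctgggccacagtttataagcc
Isg15: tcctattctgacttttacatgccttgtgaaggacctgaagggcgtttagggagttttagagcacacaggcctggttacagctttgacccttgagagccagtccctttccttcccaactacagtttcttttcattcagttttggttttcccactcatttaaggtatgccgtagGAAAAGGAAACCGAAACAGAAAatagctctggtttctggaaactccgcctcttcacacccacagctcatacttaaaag
The last is that of Cdc6, the DNA replication gene with the largest decrease, with an E2F site in capitals.
Cdc6: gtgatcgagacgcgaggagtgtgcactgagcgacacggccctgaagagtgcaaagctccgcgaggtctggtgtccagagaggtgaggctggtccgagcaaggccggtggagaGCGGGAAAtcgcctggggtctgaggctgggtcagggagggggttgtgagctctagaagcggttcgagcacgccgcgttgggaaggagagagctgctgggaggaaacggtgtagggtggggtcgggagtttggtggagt

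In GRCm38.p6 these windows were Il1a at chr2:129309973-129310222 on the minus strand, Ifnb1 at chr4:88522795-88523044 on the minus strand, Cxcl2 at chr5:90903649-90903898 on the plus strand, Cxcl10 at chr5:92348890-92349139 on the minus strand and Tnfaip3 at chr10:19015411-19015660 on the minus strand. The others were Ifit1 at chr19:34640639-34640888 on the plus strand, Rsad2 at chr12:26456453-26456702 on the minus strand, Isg15 at chr4:156200819-156201068 on the minus strand and Cdc6 at chr11:98907901-98908150 on the plus strand. In Cxcl2 the capitals are 2 overlapping matches of the NF-kB consensus, at 97 to 88 and 96 to 87 bases before the start. In Isg15, 3 ISRE cores overlap between 78 and 57 bases before it, in Cxcl10 an ISRE core, 2 NF-kB matches and an AP-1 site lie between 213 and 68 bases, and in Tnfaip3 an AP-1 site (136 to 130) and an NF-kB match (125 to 116) lie near each other, with another NF-kB match at 12 to 3. The windows of Il1b, Ccl22, Zc3h12a, Ikbke, Tk1 and Brca1 held none of these letters, and neither did the second promoter of Tnfaip3.

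Called genes often lay beside genes called in the same direction. Along the mm9 positions of 13331 named genes compared, the next gene was also higher after 208 of 977 higher genes (21.3%, against 7.34% of these genes in all) and also lower after 102 of 883 lower genes (11.6%, against 6.64%). The longest run of higher genes held 8 on chromosome 11, from Ccl5 through Ccl9, Ccl6, Ccl3 and Ccl4 to the whey acidic protein domain genes Wfdc17, Wfdc18 and Wfdc21, with differences of 2.18 to 9.49 within 226.7 kb. On chromosome 1, 6 genes of the interferon-inducible p200 family from Ifi207 to Ifi202b were higher, on chromosome 3 the guanylate-binding genes Gbp5, Gbp7, Gbp3, Gbp2b and Gbp2, on chromosome 7 Trim12c with 4 Trim30 genes, and on chromosome 17 Ltb, Tnf, Lta and Nfkbil1. Many of these neighbours are related genes whose probes could share signal, which was not tested. A run on chromosome 8 held Lcat, Slc12a4, the paralogues Dpep3 and Dpep2, Ddx28 and Dus2 (1.12 to 3.60).

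Long intergenic RNA names, which the array design gives by mm9 position, numbered 3462 among those compared, of which 193 were higher (5.57%) and 88 lower (2.54%). Where a named gene lay within 50 kb, it was itself higher for 35 of 97 higher lincRNA names (36.1%), against 153 of 1891 for all such names (8.09%). Examples are names beside Ifi207, a name on the minus strand at Trim30c, and a name 26.1 kb from Nfkbia. The 4 largest increases measured on both arrays came from 2 places. One, on chromosome 10 (chr10:69669025-69686275, minus strand), had levels of -1.85 and 4.44. The other was chromosome 16, where 3 names between 84702353 and 84710928 stood at -5.15 and 0.57, -1.79 and 3.88, and -1.79 and 3.67. The nearest compared gene, Mrpl39, lay 9.8 kb or more away with a difference of 0.21. In RefSeq's GRCm38.p6, whose positions are not used here, the gene next to Mrpl39 on that side is Mir155hg, the host of the inflammation-induced miR-155, and whether the probes read it was not tested. Their 60-base probes are given as the only sequences that identify these unnamed transcripts, with no capitals.
chr10:69669025-69686275, minus strand: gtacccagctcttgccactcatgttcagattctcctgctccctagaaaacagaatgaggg
chr16:84707202-84707748, plus strand: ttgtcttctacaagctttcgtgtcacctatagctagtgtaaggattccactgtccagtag
chr16:84708695-84708806, plus strand: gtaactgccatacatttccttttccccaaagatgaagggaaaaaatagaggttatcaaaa
chr16:84702353-84710928, minus strand: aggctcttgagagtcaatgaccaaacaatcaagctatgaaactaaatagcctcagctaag

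The largest decreases among these names were smaller, led by chr17:21653676-21667959 on the plus strand at -2.10 and -4.76, which had a difference of -0.11 in the other line and -0.84 as the mean of its probes, and by chr7:16633756-16634410 on the plus strand at 0.76 and -1.76. Linc-AAM itself was not found by name in the design (a search for its letters met 3 names of other genes), so its level was not analysed here.

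Set beside the pair labelled knockdown, most genes called on the scramble pair had a difference of the same sign. Of 1083 higher genes measured on all 4 arrays, 1048 had the same sign in the other line, with median differences of 1.74 on the scramble pair and 1.32 on the other. Of 1038 lower genes 1029 had the same sign, with medians of -1.36 and -1.01. These genes were chosen on the scramble pair, which favours the larger value there. The difference between the responses has 0 residual degrees of freedom and was not tested. Among list members, Tnf stood at 2.65 and 8.40 on the scramble pair and at 3.47 and 7.56 on the knockdown pair, and Isg15 at 1.67 and 8.07, and 0.50 and 6.73. Timp1 was lower throughout on the scramble pair (-4.37 and 2.60 against -0.45 and 4.67). Values that stood far apart included those of Osm, a cytokine of the interleukin 6 family (differences of 3.67 and 0.67), Cd300e (3.47 and 0.15) and Tap1, the peptide transporter for class I molecules (levels of -2.86 and -0.85, and a difference of -0.46 in the other pair), and over both lines neither Osm (limma adjusted p = 0.15) nor Tap1 (adjusted p = 0.443) passed. Maf had no signal on the scramble pair (-7.46 and -7.11) and stood at -6.86 and -2.50 on the other. Of the genes higher on the scramble pair 7 were called lower on the other, and of those lower 0 were called higher.

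**Figure D5:**
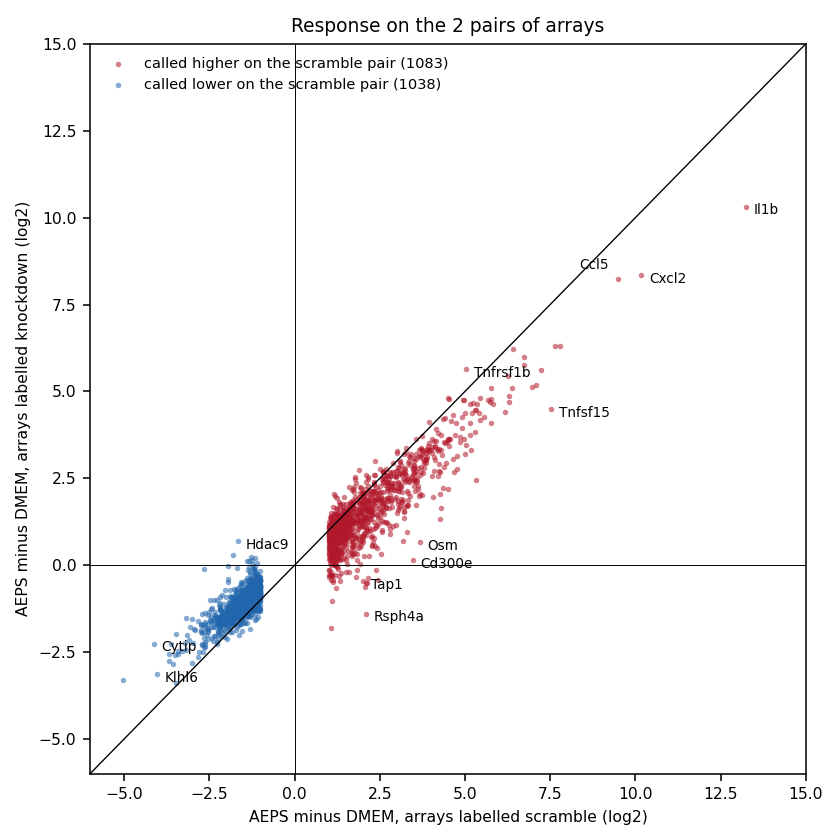
Difference between AEPS and DMEM on the arrays labelled scramble (x axis, log2) against that on the arrays labelled knockdown (y axis, log2), for 1083 genes called higher (red) and 1038 called lower (blue) on the scramble pair and measured on all 4 arrays. The line marks equal differences; most points lie closer to 0 on the y axis, with medians of 1.32 against 1.74 and of -1.01 against -1.36, and the gap around 0 on the x axis is made by the 2-fold rule.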

How the data were processed

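Total RNA of 4 RAW264.7 cultures was labelled with Cy3 and hybridised to Agilent SurePrint G3 arrays, 1 array per group. The deposited scanner files hold processed signal intensity, made by Agilent Feature Extraction 10.7.1.1 per the file headers, with 62976 spots each, of which 59305 were no controls. The series value table, deposited by the authors, holds log2 values, with a normalization that no label or header states, and it served only as an alternative. Levels were log2 intensity minus the array's 75th percentile, spots flagged as outliers were left out, spots of a probe were averaged and the brightest probe stood for a gene. Detection was the scanner's flag for well above background. Of 55681 probes, 26582 were named by accession, 2602 by symbol and 492 by synonym through RefSeq's GRCm38.p6 gene table, and 26005 kept the design's name. Probe positions are mm9, as the design gives them, without exon or UTR annotation.

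The limma fit (limma 3.58.1, R 4.3.3) used log2 levels with line and treatment as terms and Benjamini-Hochberg adjustment. The labels name no separate cultures per group, so the p-values reflect no more than how these 4 arrays vary, which may be technical. The limma fit and the 2-fold rule were also run on simulated data, but how they perform on arrays like these was not tested. Other steps used Python 3.11.15 with pandas 2.3.3 and numpy 2.4.6.

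The members, gene lists and tests were chosen with earlier results of these data known. Genes were named by a rule: the 12 largest differences each way on both arrays that held with 2 other normalizations, the 6 largest bounds each way, up to 6 called members of each list each way, markers, up to 4 lincRNA names each way and called genes printed 10 times. Other members named were chosen after their values were seen. Some members are not reported here. The number of arrays limits the precision. The alternatives covered background, normalization, detection, probes, outlier spots, the source of values and the threshold.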

Additional observations from a re-analysis of the deposited data

Results flagged for a closer look

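Nod1, a sensor of bacterial peptidoglycan, was called in opposite directions on the 2 pairs of arrays. On the arrays labelled scramble it was not well above background in DMEM (level -7.11) and stood at -3.67 under AEPS, a difference of at least 1.70. On the arrays labelled knockdown it stood at -3.49 in DMEM and was not well above background under AEPS (-4.92), a bound of -1.31. With 1 array per group the difference between the pairs was not tested.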

How the results depend on the processing

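No pairing beyond the line term that the limma fit already has was possible, because each group holds replicate 1 only. For the same reason no replicate could be left out. Of the alternatives to the 1566 higher and 1226 lower genes, the normexp background gave 1000 and 733, no filter on detection 2690 and 1896, and a 4-fold threshold 671 and 200. The value table's columns that carry the same labels, which hold the other line's arrays, gave 974 higher and 876 lower. The cause of these shifts was not tested beyond what the choices themselves set. Over both lines, limma gave 271 higher and 32 lower genes without a filter on dim genes, and 3622 and 3076 with an intensity trend. Among named genes, 1776 values under alternatives kept their direction and call, 49 kept the direction but passed below 2-fold, and 3 reversed, all in the columns with the same labels: Hdac9 at 0.69, Hspa1a at -0.05 and Tap1 at -0.47. Of the list medians under alternatives, 16 moved and 272 did not. Signal over background limits genes measured on 1 array to bounds.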

Other observations

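Other names called higher on the arrays labelled scramble and lower on those labelled knockdown were Rsph4a, a radial spoke gene of cilia (2.10 and -1.39 on the log2 scale), Nms, which encodes neuromedin S (1.80 and -1.59, both bounds), Gm16475 (1.15 and a bound of -1.18) and LOC100036523 (1.06 and -1.82). Also called so were the lincRNA names chr3:34497447-34501170 on the minus strand (1.66 and -1.46, both bounds) and chr5:121759042-121789992 on the plus strand (1.11 and -1.04). The differences between the pairs were not tested.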
